A study of Mus musculus with 2 samples.

Results

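The regions described here are the very wide m6A peaks in the list deposited for the mouse uterus on day 4 of pregnancy. A peak was a member when it lay on an autosome, measured at least 1500 bp and had its summit in the gene span of exactly 1 protein-coding gene. Of 26584 deposited peaks, 974 were at least 1500 bp wide and 947 of these lay on autosomes. A further 45 had their summit in no protein-coding span and 37 in more than 1, which left 865 members in 803 genes. They were 3.98% of the 21723 autosomal peaks in a single protein-coding span (95% Wilson interval 3.73 to 4.25), and the genes were 8.90% of the 9021 protein-coding genes with such a peak. The members were chosen by their measured width, so their fold enrichment, read pileup and significance come from the same contrast and are given as a description.

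N6-methyladenosine (m6A) is a methyl mark that a nuclear enzyme complex places on internal adenosines of messenger RNA. Reader proteins that recognise it influence how a transcript is spliced, translated and degraded. The mark is most often found near stop codons, in 3′ untranslated regions and in long internal exons, within a short sequence context whose best-known form is GGACU. In the days before the embryo attaches, progesterone and oestrogen acting through their nuclear receptors change the growth of the uterine epithelium and ready the stroma for decidualization.

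Wild-type females of 6 to 8 weeks were mated with fertile males, and uteri were taken on gestational day 4, counting the day of the vaginal plug as day 1. The cell type is labelled as mixed. PolyA RNA was sequenced from 1 sample precipitated with an antibody against m6A (IP) and from 1 input sample, and the peak list is deposited under the IP sample. There was no replicate, so no difference could be set against a spread between animals, and whether animals were pooled is not given in the sources used here. All 26584 peaks carry a run name, D8NegIP-Posinput, that does not match the labelled day. Which IP and which input the peaks were called from was therefore not settled, and the day is given as labelled.

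Peaks that covered an annotated transcription start are shown by sequence, since there the peak can be read against known letters. Among 32851 RefSeq promoter windows of 300 bases on GRCm38.p6 (250 before the start and 50 after it), 24 lay wholly inside 20 members, 15 of them windows of the member's own gene and 9 of another gene. For 22 of the windows the strand of the host gene was known. GGACT, the DNA form of the m6A context, was searched on that strand and found in 7 of them (31.8%), while 8584 of all 32851 windows (26.1%) held it on their own gene's strand. Capitals mark GGACT in the sequences, which read 5′ to 3′.

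The 250 bases before the start of Foxl2 (chr9:98955357-98955606, plus strand) and of Klf9 (chr19:23140976-23141225, plus strand) are given whole. They were picked as examples of members that reached far past the annotated 5′ end. Borcs6, which reached farther than Klf9, is not shown.
Foxl2: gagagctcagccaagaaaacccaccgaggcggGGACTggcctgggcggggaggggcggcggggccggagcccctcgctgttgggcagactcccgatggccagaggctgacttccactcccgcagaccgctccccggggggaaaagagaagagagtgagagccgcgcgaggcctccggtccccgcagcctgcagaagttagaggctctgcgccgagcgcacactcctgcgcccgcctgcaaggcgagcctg
Klf9: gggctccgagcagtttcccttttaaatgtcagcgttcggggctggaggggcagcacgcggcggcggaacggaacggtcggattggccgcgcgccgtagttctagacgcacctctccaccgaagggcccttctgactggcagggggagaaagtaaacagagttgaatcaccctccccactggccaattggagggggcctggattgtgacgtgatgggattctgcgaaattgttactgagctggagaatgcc
The Foxl2 stretch held 1 GGACT and had a GC content of 70.8%, and the Klf9 stretch held 0 with a GC content of 59.6%.

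Sites with GGACT in windows of the member's own gene are shown in 29 bases with 12 on each side, for 3 genes picked as examples; Ank2 and Gm40514 also held such a site.
Asic2, 52 bases before a start (chr11:81152939-81152967, minus strand): gtggggtccccgGGACTggccaaaccagg
Asic2, 29 bases after the same start (chr11:81152858-81152886, minus strand): tccgtgcaggggGGACTcatctcagggtc
Cdk12, 195 bases before its start (chr11:98203098-98203126, plus strand): gccgtgaggggcGGACTcgagcagctccc
Hoxd10, 233 bases before a start (chr2:74691646-74691674, plus strand): tggccgggtgggGGACTcgagtggggcag
The nearest of these to its peak summit was the first Asic2 site, at 418 bp, and the Cdk12 site lay 619 bp away. A match describes the letters in the window and does not place a methylated base.

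The members' widths ran from 1500 bp to 16992 bp with a median of 1895 bp and quartiles of 1660 bp and 2358 bp. There were 495 members under 2000 bp, 268 from 2000 to under 3000 bp, 84 from 3000 to under 5000 bp and 18 of 5000 bp or more. Although few, the members held 17.5% of all bases in the autosomal single-gene peaks. The distribution had no gap at the threshold. Just inside it lay peaks of Bag3, a co-chaperone (1500 bp, fold enrichment 16.8), Mecom, a zinc finger transcription factor (1501 bp, 9.83), Rfx7 (1501 bp, 14.5), Lgals3bp (1502 bp, 12.8) and Zfp93 (1502 bp, 6.16). Just outside it lay peaks of Larp6 (1499 bp, 16.3), Kcnd2 (1498 bp, 11.98), Kif16b (1496 bp, 18.6), Zcchc3 (1496 bp, 21.2) and Zfp286 (1495 bp, 11.1). The 143 members under 1600 bp had a median fold enrichment of 13.7, and the 157 peaks from 1400 bp to the threshold had 12.6.

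**Figure D1:**
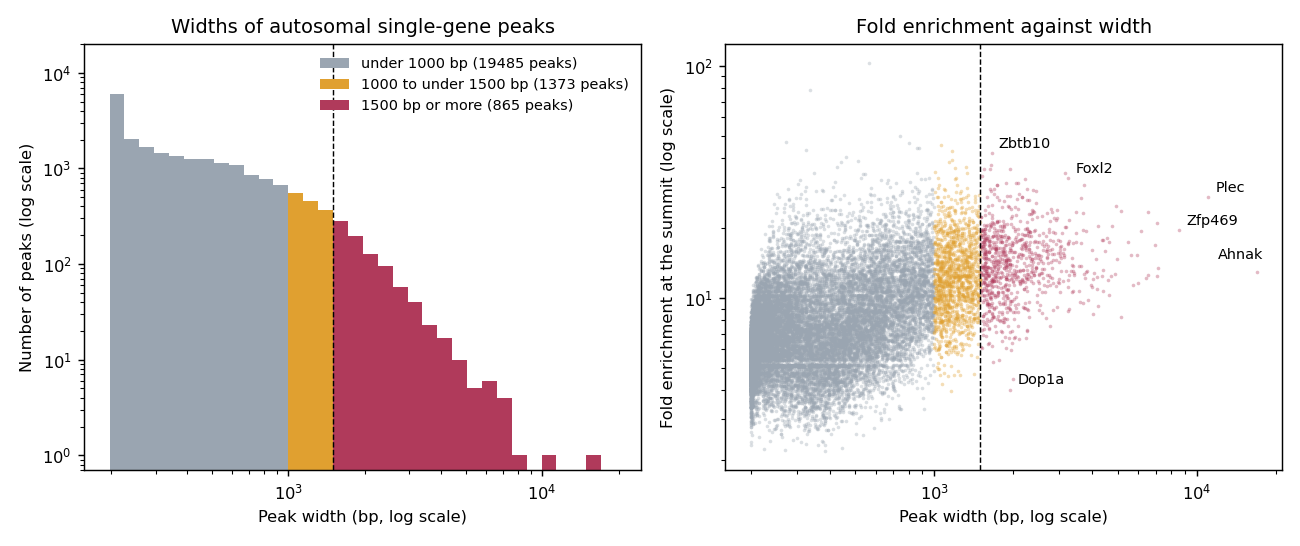
Left, the number of autosomal single-gene peaks by width (both axes on log scales), with 19485 peaks under 1000 bp in grey, 1373 from 1000 bp to under 1500 bp in orange and 865 members in red. Right, fold enrichment at the summit against width (log scales), 1 point per peak; the members span folds of 4.02 to 42.05, and the widest, in Ahnak, sits at 12.9 while narrow peaks reach higher.

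The 3 widest members lay in Ahnak, Plec and Zfp469. Ahnak encodes a giant scaffold protein at the cell periphery, and its peak (chr19:9001538-9018529) ran over 16992 bp, or 19.4% of the gene span. Its fold enrichment, IP over background at the summit, was 12.9 (95% counting interval 11.2 to 14.9). The fold and the deposited p-value give 201 IP fragments, the pileup, over a background of 14.6. Plec encodes plectin, which links intermediate filaments to junctions, and its peak of 11089 bp was stronger, at 27.2-fold (22.7 to 32.3) with 129 fragments over 3.78. The member of Zfp469, a zinc finger gene, measured 8573 bp at 19.6-fold (15.0 to 25.1).

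Below these came Zfp292 (7142 bp), Map1a, a microtubule-associated protein gene (7076 bp), Eppk1, which encodes epiplakin (7041 bp), and Apc, the Wnt pathway scaffold (6960 bp). Ankrd11, a chromatin regulator, and Prune2 had members of the same width, 6535 bp, but folds of 23.4 (19.6 to 27.7) and 12.5 (10.1 to 15.4). Srrm2, a spliceosome component of nuclear speckles, had 6422 bp, and Spen, a transcriptional repressor with RNA-binding domains, had 6160 bp. The rest of the 20 widest lay in Crybg3, Bod1l, Usf3, Zfp646, Zfhx3, Golgb1 (the Golgi protein giantin), Dst (dystonin), Vcan (the matrix proteoglycan versican) and Akap12, from 5965 down to 4924 bp. Among these 20, Dst had the lowest fold at 8.26 (6.42 to 10.5) and Plec the highest.

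**Figure D2:**
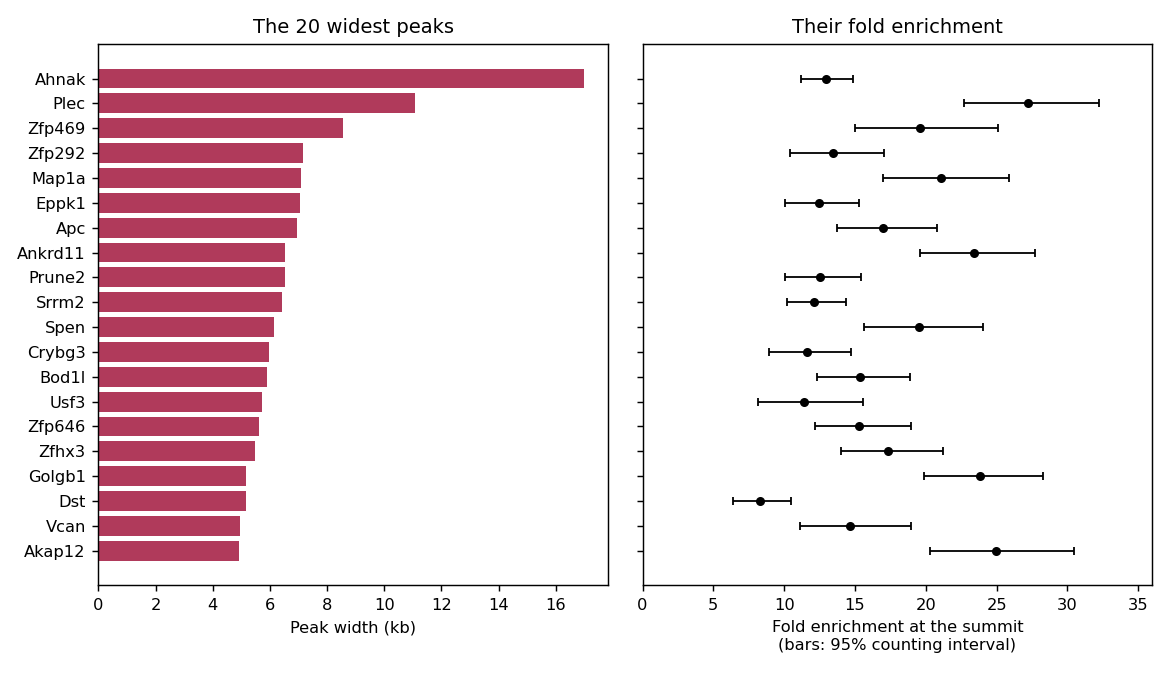
The 20 widest members, with peak width in kb on the left and fold enrichment at the summit on the right; whiskers are 95% intervals from the fragment count. Widths fall from 16992 bp in Ahnak to 4924 bp in Akap12, while folds lie between 8.26 in Dst and 27.2 in Plec without following the order of width.

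Fold enrichment among the members had a median of 14.1 with quartiles of 11.4 and 17.5. It was at least 10 in 730 members (84.4%), at least 20 in 109 (12.6%) and at least 30 in 15 (1.73%). The highest values belonged to Zbtb10, a zinc finger gene (42.05, interval 33.2 to 52.6), Phf23, whose protein carries a histone-binding PHD finger (37.5, 31.6 to 44.3), Tspyl1 (36.01, 29.6 to 43.4), Zfp651 (35.9, 28.0 to 45.4) and Pdzrn3, a ubiquitin ligase gene (35.8, 29.6 to 43.1). Dido1, Phlpp2 (a phosphatase that acts on the kinase Akt), Foxl2, Gas1 and Prag1 followed, between 34.7 and 31.4. These 10 intervals overlap, so their order is not resolved by the counts.

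The lowest fold was that of Dop1a, at 4.02 (2.53 to 6.10) with 20 fragments. Akap11, an anchor of protein kinase A, had 4.46 (3.16 to 6.12) in a second member beside another of 13.9. Eef2, the translation elongation factor, had 5.32 (4.24 to 6.58) with 82 fragments over a background of 14.6, and Hpgds, a prostaglandin D synthase gene, had 5.41 (3.99 to 7.18) with 46 over 7.69. The remaining 6 of the 10 lowest, in AI661453, Zscan29, Limd1, Zfp93, Zfp937 and Zfp704, lay between 5.97 and 6.31. By significance the leading members were Phf23 (−log10 q of 174.9), Son, a nuclear speckle protein gene (174.2), Hand2 (159.4) and Gas1 (147.7), against a median of 49.4. Then came LOC115488029, Ahnak, Pdzrn3, Plec, Emilin1, an elastic fibre gene, and Lmod1, a leiomodin of smooth muscle.

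Depth and width moved together. At the summit the members had a median of 59 fragments (range 12 to 204), against 45 in peaks from 1000 bp to under 1500 bp and 18 in peaks under 1000 bp. Of 3136 peaks with under 10 fragments, 0 were members, which allows a share of up to 0.0957% by 3 counts of the total. The share was 2.56% of peaks with 20 to under 40 fragments, 10.1% from 40 to under 60, 23.6% from 60 to under 100 and 37.5% (99 of 264) at 100 or more. The background also rose, with medians of 3.08, 2.50 and 1.54 in the 3 width classes from wide to narrow. The part of transcript abundance in these shares was not tested. Across the 865 members, Spearman's rank correlation of width was 0.26 with pileup, 0.20 with background, 0.10 with fold and 0.10 with gene span; each pair comes from the same library, and these are descriptions.

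The summit had to lie in a single protein-coding span, but its position along that span did not enter the choice of members. The RefSeq promoter table gave the strand of the gene for 692 members, and 517 of these (74.7%, interval 71.3 to 77.8) had the summit nearer the 3′ end of the span. That share was 75.4% in peaks from 1000 bp to under 1500 bp (72.8 to 77.9) and 64.8% in peaks under 1000 bp (64.0 to 65.5). The last 10% of the span held 206 summits (29.8%, 26.5 to 33.3) and the first 10% held 32 (4.62%, 3.29 to 6.46). Peaks under 1000 bp had 28.5% in the last 10% of the span and 12.6% (12.1 to 13.1) in the first 10%. In the first 10% the intervals of members and of peaks under 1000 bp did not overlap. Those of members and of peaks from 1000 bp to under 1500 bp (6.70%, 5.37 to 8.35) did. The intervals count each peak as independent, though the 19485 peaks under 1000 bp lay in 8532 genes. A wide peak has less room for its summit near an end of a short span, and the part of width in these shares was not tested.

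**Figure D3:**
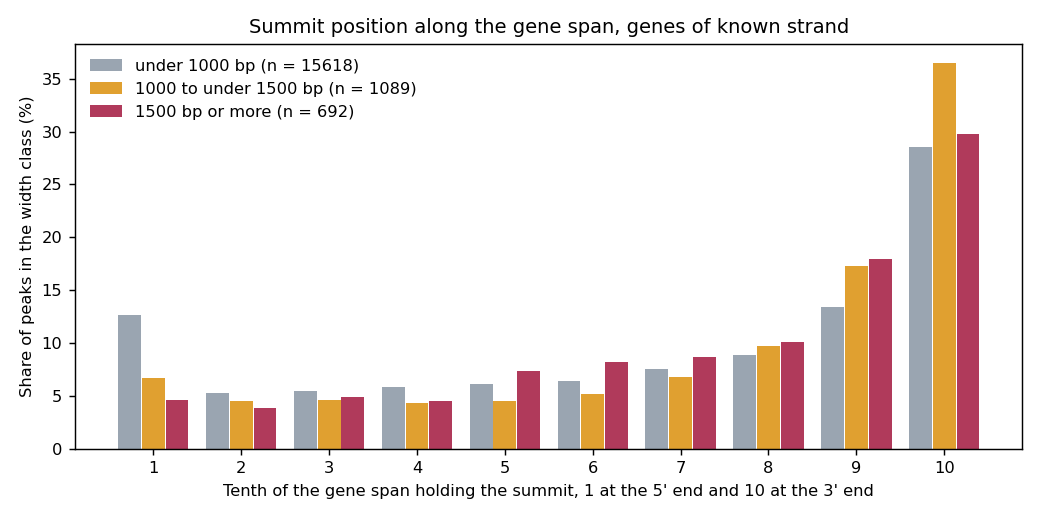
Share of peaks in each width class (percent) by the position of the summit along the gene span in bins of 10%, from the 5′ end (left) to the 3′ end (right), for genes of known strand. Members (red, n = 692) have 4.62% in the first bin and 29.8% in the last; peaks from 1000 bp to under 1500 bp (orange) have 6.70% and 36.5%, and narrower peaks (grey) 12.6% and 28.5%.

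Distances to the ends of the span depend on width by construction, since the summit of a wide peak that stays inside the gene tends to lie far from both ends. They are given as a description. The summit was within 2000 bp of either end of the span in 242 of 865 members (28.0%, 25.1 to 31.1), in 39.0% of peaks from 1000 bp to under 1500 bp (36.5 to 41.7) and in 35.1% of narrower ones (34.5 to 35.8). By end, 152 of 692 members (22.0%, 19.0 to 25.2) were that close to the 3′ end, against 30.8% (28.1 to 33.6) of moderately wide peaks, and 75 (10.8%) to the 5′ end, against 10.8%. The median distance from summit to 3′ end was 4669 bp in members, 3716 bp in moderately wide peaks and 8040 bp in narrower ones. Genes in which the summit was over 2000 bp from both ends (495 members) had a median span of 54095 bp, against 4197 bp for the 75 near the 5′ end. Median fold was 16.3 in those 75, 13.9 in the 152 near the 3′ end and 13.7 in the 495. The 75 and the 152 share 30 members near both ends, whose genes had a median span of 2788 bp. For the 45 near the 5′ end only, the median span was 7249 bp. Exons were not analysed here, so widths and distances are in genomic bp and include any intron a peak runs over. Within the peak the summit had a median position of 52.1% of the width from the 5′ side, but positions were widely spread (quartiles 30.4% and 72.5%). The quartiles lay closer together in moderately wide peaks (34.1% and 67.75%) and in narrower ones (40.5% and 65.7%).

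The members farthest from both ends of their span were in very long genes. Asic2, an acid-sensing ion channel gene, had its summit 815023 bp from the 5′ end and 273210 bp from the 3′ end of the span. Its fold was 29.5 (22.9 to 37.3), the highest of its 8 peaks, and the peak (chr11:81151444-81153697) covered a further annotated start of Asic2, with the summit 470 bp upstream of that start. The sequences shown above for Asic2 lie around it. Malrd1 held a pair of members 231706 and 229533 bp from the nearer end, separated by 334 bp, with folds of 13.4 and 13.1. Trappc9, Syne1 and Syne2 (nesprins of the nuclear envelope), Tshz2, Zfhx3, Akap13 and Zfp521 made up the rest of the 10, from 217465 to 128238 bp from the nearer end.

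At the other extreme, 58 members (6.71%, 5.22 to 8.57) covered at least 50% of the gene span, against 1.89% of moderately wide and 0.226% of narrower peaks, an order that width itself favours. LOC115488029 was covered entirely (2342 bp, 13.0-fold). Cenpb, which encodes a centromere DNA-binding protein, was covered over 98.4% of its span, and Ier2, an immediate early gene, over 98.0%. Nog, whose product noggin blocks BMP ligands, was covered over 94.4% (18.3-fold, 15.1 to 21.9), and Rhob, a small GTPase gene, over 87.5% (13.1-fold, 10.3 to 16.4). C2cd4a, Irf2bpl, Junb and Hspa1b, an inducible Hsp70 gene, ranged from 95.1% to 85.1%. Each of these genes had no other peak. Reads of Hspa1b, of LOC115488029 and of clustered zinc finger genes may be shared with near-identical copies, and their values are uncertain in that respect.

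A peak can also run beyond the annotated gene. Of 692 members with known strand, 31 (4.48%, 3.17 to 6.29) reached past the 5′ end and 5 (0.723%) past the 3′ end. The former share was 2.85% (2.01 to 4.01) in moderately wide peaks and 2.22% in narrower ones. The latter was 1.19% in moderately wide peaks and 0.237% in narrower ones. Width itself favours reaching past an end, so these shares are a description. Foxl2, a forkhead factor best known from the ovary, went farthest. Its peak (chr9:98954468-98957703) measured 3236 bp, reached 1139 bp past the 5′ end and had a fold of 32.7 (26.1 to 40.5) with 82 fragments over a background of 1.54. The antisense gene Foxl2os starts inside the same interval, and the peaks carry no strand, so the transcripts of both cannot be told apart. Borcs6 reached 950 bp, Klf9 782 bp, Gm40514 684 bp, Stk35 480 bp and Mgat2 316 bp past the 5′ end. In Mgat2, a glycosyltransferase gene, and Stk35 the interval again held the start of an opposing gene, Rpl36al and Stk35os1.

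Small RNA genes lay inside members as well. How often hairpins lie in other peaks is not given here, and width itself favours holding a hairpin, so their number is a description. Hairpins of 6 miRNA genes fell wholly in a member, those of Mir671 in Chpf2, Mir7030 in Rab35 and Mir8115 in P2rx7 on the host gene's strand, Mir1896 in Zscan26 and Mir6244 in Zc3h12c on the opposite strand, and Mir7021 in Prdm2, whose strand was not known. The hairpin of Mir671 (chr5:24592114-24592211) is shown through its mature products because its centre lay 149 bp from the summit of the Chpf2 member (1553 bp, 13.7-fold, 9.83 to 18.6), on the same strand; capitals mark the seed.
mmu-miR-671-5p: aGGAAGCCcuggaggggcuggag
mmu-miR-671-3p: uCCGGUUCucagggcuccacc
Chpf2 encodes a chondroitin polymerising factor. The seeds of these products differ from each other. The polyA library measures the host transcript or its precursor, not the mature miRNA.

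Most genes with a member had other peaks. A further peak was present in 619 of 803 genes (77.1%, 74.1 to 79.9), against 78.7% of genes with a peak from 1000 bp to under 1500 bp (76.4 to 80.8) and 61.0% of genes with a narrower one. In genes with several peaks the member had the highest fold in 429 of 681 cases (63.0%, 59.3 to 66.5). That share was 61.8% for moderately wide peaks (58.9 to 64.6) and 25.65% for narrower ones. Members and moderately wide peaks thus overlapped in both respects. Fold and width come from the same contrast, and genes with several members enter more than once, so this rank is a description. The share of genes with a member rose with the number of peaks, from 4.86% of genes with 1 peak through 12.2% of those with 3 or 4 to 41.3% (50 of 121) of those with 10 or more. A gene with more peaks has more that can be wide, so these shares only describe the list. The median gap from a member to its nearest neighbour in the gene was 1380 bp and the smallest 117 bp. In 222 members the gap was 500 bp or less, and for 31 of these the neighbour was itself a member.

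There were 50 genes with 2 members and 6 with 3, which together held 118 members. Map1b, a microtubule-associated protein gene, had its 3 within the 3′ part of the span, with folds of 20.6 (16.0 to 26.03), 19.4 (15.7 to 23.7) and 12.6 (9.48 to 16.3). Spen had 2 adjacent members separated by 163 bp and the other 49174 bp from the farther of them by summit. The Spen folds were 19.9, 19.5 and 14.2. In Fat4, an atypical cadherin gene, the summits lay 119544 bp apart from first to last, at 5.15%, 76.6% and 99.0% of the span, with folds of 10.3, 9.01 and 13.6. Dst held 29 peaks, 3 of them members with folds of 8.26 to 13.3. Zfhx3 had a member at 75.4% of its span (21.8-fold, 18.3 to 25.7) and others at 98.2% and 99.3% (17.3 and 17.4). Eppk1 had 3 peaks in all, each a member, over 9297 bp of summit distance with a smallest gap of 128 bp.

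**Figure D4:**
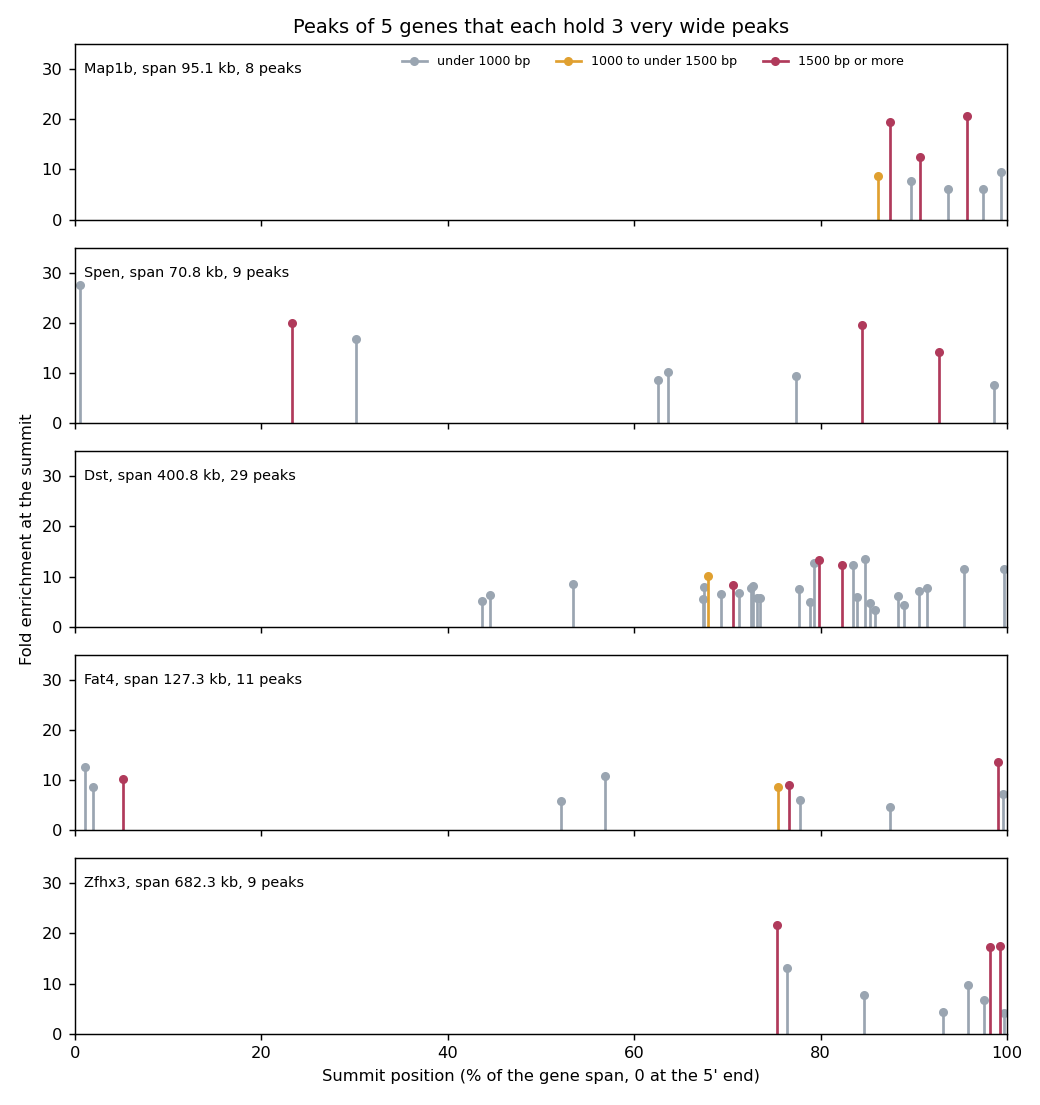
Every peak of 5 genes that hold 3 members each, placed by summit along the gene span (percent, 0 at the 5′ end) with fold enrichment as height; members are red, peaks from 1000 bp to under 1500 bp orange and narrower peaks grey. The 3 members of Map1b sit close together between 87.5% and 95.7% of the span, while those of Fat4 are spread from 5.15% to 99.0%.

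Over the 56 genes with several members the median distance from first to last summit was 10715 bp. Members were over 10000 bp apart in 29 genes and separated by 500 bp or less in 16. The widely separated group included Celsr1, an atypical cadherin (131543 bp), Tulp4 (95039 bp), Fat1 (73398 bp), Nsd1, a histone methyltransferase gene (65834 bp), and Tet3, which oxidises methylcytosine (34315 bp). Close pairs included Akap11 (gap 126 bp), Mast4 (131 bp), Ahnak2 (143 bp), Rlf (175 bp), Son (213 bp), Rfx7 (230 bp) and Stard9 (239 bp). Where a gap is this short, a slightly different peak call could give a single wider peak, which was not tested.

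Genes with a member were counted in 29 lists of gene families and pathways, and 321 of the 803 genes were in at least 1 list. How many of all genes with a peak were in a list is not given here, so the 321 only describe the reach of the lists. In 21 lists the share of genes with a peak that had a member exceeded the 8.90% of all genes. Depth moves with these shares, since genes with a member had a median highest pileup of 63 against 26 over all genes with a peak. The share was also taken over the 2712 genes whose highest pileup was at least 40, called deep here, of which 633 (23.3%) had a member. A gene can be deep through the member itself, so shares of deep genes do not take depth out of the comparison and are a description. Several lists share genes, so their counts are not independent.

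**Figure D5:**
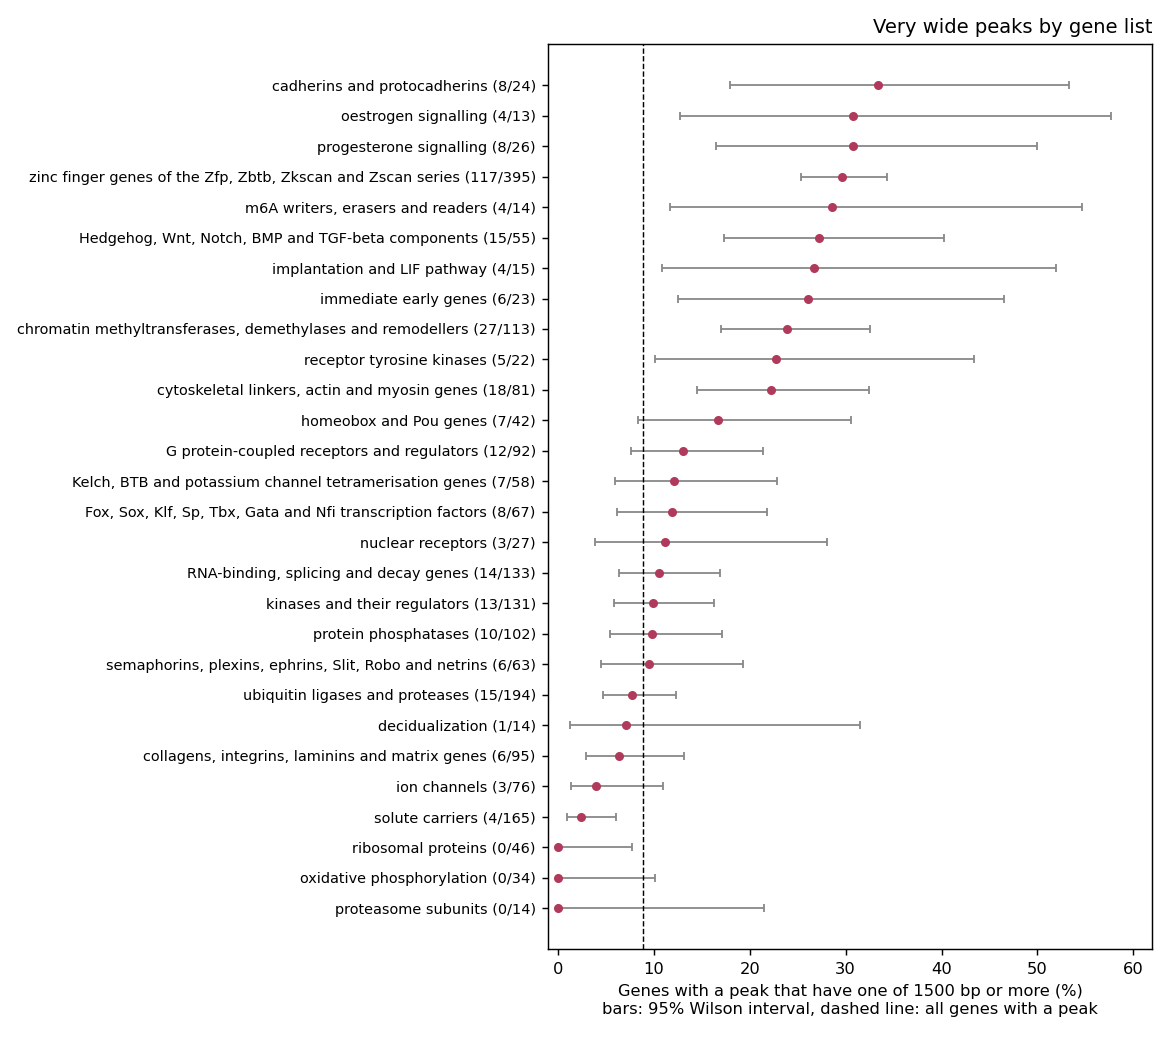
Share of genes with a peak that have a member (percent) for the gene lists, with 95% Wilson intervals; numbers in brackets are genes with a member over genes with a peak, and the dashed line marks 8.90%, the share over all genes. Cadherins (33.3%) and hormone signalling lists (30.8%) lie at the top and ribosomal, oxidative phosphorylation and proteasome genes at 0.

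Hormone signalling genes of the uterus were among the members. Of 26 progesterone signalling genes with a peak, 8 had a member (30.8%, 16.5 to 49.99; 8 of 20 deep ones), with a median fold of 14.8 against 14.1 over all members. Hand2, a stromal transcription factor that acts below progesterone to restrain epithelial growth, had the strongest (chr8:57320952-57322584, 1633 bp). Its fold was 29.5 (24.9 to 34.8) with 142 fragments over 3.85, and it covered 45.3% of the span. Pgr, the progesterone receptor, had a member of 2245 bp (chr9:8899837-8902081) with its summit 1773 bp from the 5′ end and a fold of 13.8 (10.6 to 17.5), the highest of its 4 peaks. Nr2f2, or COUP-TFII, a stromal nuclear receptor, had 21.4 (16.5 to 27.4) over 1742 bp (chr7:70359897-70361638).

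Klf9, a Krüppel-like factor that interacts with progesterone receptor, had its only 2 peaks as members, at 14.8-fold (11.7 to 18.4) across the 5′ end and 12.6-fold (10.4 to 15.2) 3198 bp from the 3′ end, and these intervals overlap. Gli2, a Hedgehog effector, had 14.9 (11.1 to 19.5) over 3359 bp, and Zbtb16, a progesterone-induced zinc finger factor, had 15.8 (13.3 to 18.6). Errfi1, an inhibitor of EGF receptor signalling, had 12.5 (10.6 to 14.7) with 144 fragments in its sole peak. Foxo1, a factor of the decidual response, had 10.6 (8.58 to 12.9), with the summit 4519 bp from the 3′ end.

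Of 13 oestrogen signalling genes with a peak, 4 had a member (30.8%, 12.7 to 57.6; 44.4% of 9 deep ones), Pgr among them. Esr1, the main uterine oestrogen receptor, had 16 peaks, and its member (chr10:5001037-5003018, 1982 bp) was 3789 bp from the 3′ end. Its fold of 6.42 (5.19 to 7.85) lay below the median with 93 fragments over a background of 13.7. Nrip1, a corepressor of nuclear receptors, had a single peak of 4413 bp (chr16:76290779-76295191) at 17.8-fold (14.2 to 21.9). Ncoa6, a coactivator, had 8.26 (5.76 to 11.5).

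In the implantation and LIF pathway list, 4 of 15 genes had a member (26.7%, 10.9 to 52.0), with 1 of 4 deep ones, a share near that of all deep genes. Il6st, the gp130 receptor subunit through which LIF signals, had 3166 bp at 13.1-fold (10.99 to 15.5), and Socs3, its feedback inhibitor, had 1536 bp at 12.5-fold (8.27 to 18.3). Ror1 and Ror2, receptors for Wnt ligands, had 13.2 and 13.0, 2480 and 1052 bp from the 3′ end. In the decidualization list 1 of 14 had a member (7.14%; 1 of 10 deep ones), Egr1, an immediate early factor, at 8.74-fold (6.38 to 11.7). Receptor tyrosine kinases had 5 of 22 (22.7%, 10.1 to 43.4; 3 of 12 deep ones, likewise near the share of all deep genes), with Pdgfra at 10.3-fold (8.69 to 12.1), Pdgfrb at 14.4-fold (12.03 to 17.1), Kdr, the main VEGF receptor of endothelium, at 12.3-fold (9.46 to 15.8), and Ror1 and Ror2 again.

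Developmental signalling components had 15 of 55 genes with a member (27.3%, 17.3 to 40.2; 12 of 30 deep ones), with 16 members and a median fold of 15.4. By role, 5 were Frizzled receptors of Wnt, with Fzd7 at 22.1-fold (17.7 to 27.3), Fzd10 at 19.7 (14.8 to 25.7), Fzd4 at 16.0 (11.2 to 22.1), Fzd2 at 10.9 (8.01 to 14.6) and Fzd1 at 8.75 (6.90 to 10.9). The lowest 2 of these had intervals below that of Fzd7. Bcl9l, a β-catenin cofactor, was the strongest in the list at 28.8-fold (23.3 to 35.2), and its relative Bcl9 had 2 members at 14.2 and 9.70. Notch2 had 16.6 (12.8 to 21.1), with its coactivators Maml3 at 17.1 (12.3 to 23.2) and Maml2 at 10.02 (7.70 to 12.8). Znrf3, a ubiquitin ligase that removes Frizzled from the surface, had 18.03 (12.8 to 24.7), and Smad3, a TGF-β effector, had 8.96 (6.71 to 11.7).

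Immediate early genes, which are short and induced within minutes, had 6 of 23 (26.1%, 12.6 to 46.5; 5 of 15 deep ones), over a median span of 3385 bp for the list. Their folds were 20.2 in Ier5, 19.6 in Jun, 18.6 in Jund, 13.7 in Ier2, 9.15 in Junb and 8.74 in Egr1. The interval of Jun (16.3 to 23.3) lay above that of Junb (6.31 to 12.9), both of them AP-1 subunits. Jun was covered over 74.1% of its span, Junb over 85.6% and Jund over 52.7%.

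Genes of the m6A machinery had 4 of 14 (28.6%, 11.7 to 54.7; 36.4% of 11 deep ones). Rbm15 and Rbm15b are adaptors that recruit the methyltransferase complex to RNA. Rbm15b had 31.2-fold (25.5 to 37.8) over 2059 bp and Rbm15 had 19.7-fold (16.0 to 24.02) over 3696 bp (chr3:107330134-107333829), in an interval that also covered its annotated start. The readers Ythdf2 and Ythdf3, which direct marked transcripts to decay, had 16.7 (13.3 to 20.6) and 11.8 (9.26 to 14.7).

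Zinc finger genes of the Zfp, Zbtb, Zkscan and Zscan series, counted together with Zeb and Zfhx genes, formed the largest list by members, with 117 of 395 genes (29.6%, 25.3 to 34.3) and 124 members. Zeb1, Zeb2 and Zfhx3 are among the 117. Over the 139 deep genes of this list the share was 54.0%. The median highest pileup over all genes of the list with a peak was 30, against 26 over all genes with a peak. Its median span was 18012 bp, against 28123 bp of all. The part of depth and of gene length in these shares was not tested. Folds ran from 6.05 in Zscan29 to 42.05 in Zbtb10, with a median of 13.3. Zfp292 and Zbtb21 had a single peak each, of 7142 bp and 3367 bp, while Zfp704 had 17 peaks of which 2 were members.

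Chromatin regulators had 27 of 113 (23.9%, 17.0 to 32.5), all 27 among the 60 deep genes (45.0%), with 33 members and a median fold of 13.4. Histone H3 lysine 4 methyltransferases were represented by Kmt2d (18 peaks), with members at 20.5-fold (16.7 to 24.8) over 4227 bp and 16.7-fold (13.6 to 20.3), by Kmt2a with 16.1 and 9.85, and by Kmt2c with 12.3. Setd2, which methylates lysine 36, had 10.7 (8.74 to 12.9) over 4387 bp. Nsd1, with 16.4 and 11.8, acts on the same residue. The dioxygenases Tet2 and Tet3 had 2 members each. Those of Tet2 were 13.4 and 12.7, and those of Tet3 were 20.3 (15.6 to 26.1) and 6.50 (4.40 to 9.30), which differed beyond counting error within the gene. The acetyltransferases Crebbp and Ep300 had 16.3 and 12.7, and Arid1a, Arid1b and Arid2, subunits of SWI/SNF remodellers, had 12.1, 11.4 and 18.3.

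Cytoskeletal linkers, actin and myosin genes had 18 of 81 (22.2%, 14.5 to 32.4; 33.3% of 45 deep ones), Ahnak and Plec among them. Lmod1 had 28.0-fold (23.4 to 33.4), Map1a 21.1 (17.0 to 25.9), Ahnak2 21.2 and 16.2, and Macf1, a spectraplakin like Dst, 13.0 and 9.94. The lowest were Ank2, with 7.14 (4.04 to 11.9) from 13 fragments, and Cgnl1 with 7.65. Cadherins and protocadherins had 8 of 24 (33.3%, 17.97 to 53.3; 5 of 8 deep ones), with 13 members. These were the atypical cadherins Celsr1, Celsr2, Dchs1, Fat1, Fat3 and Fat4 together with Pcdh1 and Pcdh7. Their folds ran from 9.01 to 16.9, and Pcdh7 had 4608 bp at 11.98-fold (9.81 to 14.5).

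Matrix genes had 6 of 95 (6.32%, 2.93 to 13.1; 6 of 35 deep ones, or 17.1%), an interval that includes 8.90%. The 6 were Adamts5 (27.1-fold, 20.1 to 35.9), the tenascin gene Tnxb (24.8, 20.2 to 30.1), the laminin receptor subunit gene Itga6 (16.7), Adamts1 (16.5), a progesterone-responsive protease, Vcan (14.7) and Mmp14 (9.44). Tnxb had 22 peaks. RNA-binding, splicing and decay genes had 14 of 133 (10.5%, 6.37 to 16.9), above 8.90%, but 12 of 69 deep ones (17.4%), below 23.3%, including the silencing adaptors Tnrc6a, Tnrc6b and Tnrc6c at 14.1, 12.5 and 16.0-fold and both members of Son at 19.2 (16.6 to 22.0) and 9.18 (7.54 to 11.1). Homeobox genes had 7 of 42 (16.7%, 8.32 to 30.6; 7 of 26 deep ones), with the teashirt genes Tshz1, Tshz2 and Tshz3 at 12.7, 18.1 and 11.9-fold, and Hoxd10 at 10.5 (8.46 to 12.8).

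G protein-coupled receptors had 12 of 92 (13.0%; 10 of 31 deep ones), among them S1pr1, the sphingosine 1-phosphate receptor (22.4-fold, 16.4 to 30.04), Ptger4, a prostaglandin E receptor (11.2, 8.35 to 14.8), and the 5 Frizzled genes already given. Kelch and BTB genes had 7 of 58 (12.1%; 6 of 13 deep ones), and nuclear receptors 3 of 27 (11.1%; 3 of 7 deep ones), namely Esr1, Nr2f2 and Pgr. Fox, Sox, Klf and related factors had 8 of 67 (11.9%), above 8.90%, but 8 of 38 deep ones (21.1%), below 23.3%. Kinases and their regulators had 13 of 131 (9.92%, 11 of 46 deep ones) and protein phosphatases 10 of 102 (9.80%, 8 of 34 deep ones). Semaphorins, plexins, ephrins and related genes had 6 of 63 (9.52%, 5 of 20 deep ones). Ubiquitin ligases and proteases had 15 of 194 (7.73%, 12 of 75 deep ones). The interval of each of these shares of all genes with a peak includes 8.90%. The lists do not hold every gene of a kind, so the shares describe the listed genes only. Pdzrn3 and Znrf3 are not in the ubiquitin list, and the kinase genes Abl1 and Abl2, which had members, are not in the kinase list. Within these lists, Irs1, an insulin receptor substrate, had 4459 bp at 15.9-fold (12.5 to 19.9). Cdk12, a kinase of RNA polymerase II, had 18.6 (15.4 to 22.3) across its start.

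Solute carriers had 4 of 165 (2.42%, 0.947 to 6.07), an interval below 8.90%. Over deep solute carrier genes it was 4 of 35 (11.4%, 4.54 to 25.95), an interval that includes 23.3%. Ion channels had 3 of 76 (3.95%, 1.35 to 10.97; 1 of 15 deep ones). Slc39a7, a zinc transporter gene, had the strongest carrier member at 30.5-fold (24.5 to 37.6). Among 46 ribosomal protein genes with a peak there were 0 with a member, which allows a share of up to 6.52%, and 31 of them were deep. The median span of the list was 3206 bp, with a median highest pileup of 49. Oxidative phosphorylation genes had 0 of 34 (up to 8.82%) and proteasome subunits 0 of 14 (up to 21.4%), with 2 and 5 deep genes. These limits rest on 3 counts of the total. The upper Wilson bounds, which the plot of gene lists draws, are 7.71%, 10.2% and 21.5%, so only the ribosomal protein genes lie below 8.90% by both.

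The labelled tissue was checked through markers with a peak of any width. All 7 stromal markers had a peak, with Hand2, Pdgfra and Pdgfrb among the members, as had 4 of 5 smooth muscle markers, 5 of 6 epithelial markers and all 5 endothelial markers, Kdr as a member. Peaks were found for 3 of 6 immune markers, 0 of 4 red blood cell markers, 2 of 5 markers of ovary and oviduct and 2 of 5 of the embryo. Of all 20665 protein-coding genes on autosomes, 9021 had a peak in a single protein-coding span. The immune, ovary and embryo counts lie near that share and do not speak to those cells. A peak needs enrichment in the IP over background, so a marker without a peak may still be expressed. Because cells were mixed, fewer cells of a type, less RNA per cell and less methylation cannot be told apart.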

How the data were processed

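The data were 1 deposited peak list from m6A immunoprecipitation sequencing of polyA RNA of mouse uterus. Per the submitters' processing notes, reads were handled with HISAT2 2.2.1 and MACS3 3.0.0a7 on mm10. Not given in the sources used here were the options, the control and whether animals were pooled. The fold enrichment is a ratio deposited by the authors, and their p-values and q-values are deposited as −log10. The lowest −log10 q was 1.31. The deposited score was not used beyond a description of the file. These values served only to describe and rank peaks within the list.

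Gene spans came from RefSeq on GRCm38.p6, the assembly of mm10, and gene strand and promoter sequences from RefSeq's promoter table on that assembly. Coordinates count from 1. The IP pileup (fragments at the summit) and the background were solved from the fold, taken as pileup plus 1 over background plus 1, together with the deposited Poisson p-value. Every whole pileup was tried, and the nearest one missed the deposited −log10 p by at most 0.05 of the spacing to the next for all 865 members and for 96.0% of all peaks. The solver was tested on simulated data made with the same formula. Intervals of folds are exact Poisson intervals at 95%, with the background taken as known, and shares have Wilson intervals. Neither kind covers more than counting error, as fragments were amplified and need not be separate molecules. Shares of peaks also count the peaks of a gene as independent.

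The members and gene lists were chosen with earlier results of these data known. Named genes were the 20 widest members, the 10 with the highest and the 10 with the lowest fold, the 10 of highest significance, genes with several members, the 5 on each side of the threshold, the 10 farthest from span ends, the 10 covering most of their span and members in the lists. Of these, 1 gene and 1 list are not reported here, though the counts over all members and lists include them. Genes whose peaks held a start or a miRNA, or ran past a span end, were picked after their values were seen, as were the examples within lists. With 1 IP and 1 input sample no test across samples was possible. Exons, transcript regions and the motif inside peaks were not analysed here. The work used pandas 2.3.3, numpy 2.4.6, matplotlib 3.10.9 and scipy 1.17.1 under Python 3.11.15.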

Additional observations from a re-analysis of the deposited data

How the results depend on the processing

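Of 67 alternative values of the main results, 53 stayed within their interval or within 1.5 times the count, and 14 moved. With a minimum width of 1000 bp there were 2238 peaks in 1958 genes, 34.8% near a span end, with a median fold of 12.8, pileup of 50 and background of 2.69. With 2000 bp there were 370 peaks in 355 genes, 22.7% near an end, with medians of 14.9, 68 and 3.54. Counting a summit as near within 1000 bp gave 7.63%, and within 5000 bp 59.2%. The minimums of 5 for −log10 q and of 4 for fold could remove no member, since the lowest member values were 5.73 and 4.02. Only the share of genes with a further peak could change among the main values there, and the rest were fixed in advance. That share was 74.2% and 75.8%, against 77.1%. No main value moved under −log10 q of at least 5, fold of at least 4, 50% overlap in place of the summit, chromosome X added, the midpoint in place of the summit, and, chosen after seeing the data, no other gene of any kind at the summit (831 members). Which lists exceeded the share of all genes was the same for 29 of 29 lists under these settings (the midpoint, not run for lists, aside) and for 24 of 29 at 1000 bp and at 2000 bp. The restriction to genes with a pileup of at least 40 was also chosen after seeing the data. It moved the share beyond its interval in 15 lists. No paired analysis was possible because there is 1 sample in each group. Among autosomal single-gene peaks, 0 of 3136 with under 10 fragments were members; pileup and width come from the same contrast, and the part of depth was not tested.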
